A study of Saccharomyces cerevisiae with 38 samples.

Results

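The genes of arginine biosynthesis in budding yeast (Saccharomyces cerevisiae) were followed across 38 glass arrays. Of 9 listed genes, 8 were found by symbol among the 5548 genes with a named spot: ARG1, ARG2, ARG3, ARG4, ARG7, ARG8, CPA1 and ORT1. Each had 1 spot with a value on all 38 arrays. ARG5,6 was not analysed here.

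Each array set the polyA RNA of a test strain against that of a wild-type (WT) strain in the other dye. The tested groups were 6 double mutants (elp3 ts2, esa1 ts2, gcn5 ts2, hat1 ts2, hpa2 ts2 and sas3 ts2, 2 arrays each), ts2 alone (6 arrays) and 6 single mutants of the histone acetyltransferase (HAT) genes ELP3, ESA1, GCN5, HAT1, HPA2 and SAS3 (2 arrays each). A further 8 arrays set WT against itself. The allele ts2 makes TAF1, which belongs to the general factor TFIID, sensitive to heat. All strains, WT included, were grown in a medium without histidine to an optical density near 0.8 and held at 37 °C for 45 minutes, so no group shows these genes at a permissive temperature. The labels name neither the HAT alleles nor separate cultures behind the arrays of a group. The p-values thus measure only how far these arrays differ, which may be technical. The array titles give slide numbers, and slides with nearby numbers were grouped here into slide runs 1 to 4. These hold slides 5 to 9, 29 to 33, 46 to 51 and 66 to 73, and no label names them as batches.

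Values are log2 ratios of the test strain to WT after subtraction of the median gene of each array, because the median deposited ratio differed between arrays (0.313 to 2.5). A change is thus relative to the median gene and not to the cell. Ratios carry no level of expression, so the genes are compared by their change only. Changes come from a limma model over all arrays with WT at 0, with the standard error (SE) pooled over all groups. The WT arrays enter only a dye term and the spread, so their own mean is not subtracted. The p-values were adjusted over all genes of a comparison at a threshold of 0.05. GCN5 lay between -3.41 and -2.22 on the 4 arrays labelled gcn5 or gcn5 ts2, and between -0.42 and 0.54 on the other 34. HAT1 lay between -3.85 and -2.7 on its 4 arrays and between -0.98 and 0.98 on the other 34. For ELP3, ESA1, HPA2 and SAS3 these ranges overlapped, so those arrays are named by label alone, and 1 of the arrays labelled hpa2 ts2 carries the strain number of elp3.

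Yeast makes arginine from glutamate in a route that begins in mitochondria and ends in the cytosol. Acetylated intermediates are converted to ornithine in the mitochondrial matrix, ornithine is exported, and the cytosolic enzymes join it with carbamoyl phosphate and aspartate to give arginine. When arginine is plentiful the ArgR proteins, together with Mcm1, repress several of these genes, and during amino acid starvation the activator Gcn4 raises their transcription. CPA1 is also controlled by arginine through a small peptide encoded in the leader of its mRNA. Gcn4 is known to recruit the SAGA coactivator, whose acetyltransferase is Gcn5.

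In ts2, 6 of the 8 genes rose and 1 fell relative to WT. The cytosolic enzymes changed most: ARG1 rose 6.88-fold, and ARG3, ARG4 and CPA1 rose too. The log2 changes of the mitochondrial enzyme genes ARG2, ARG7 and ARG8 were 0.44 at most, and the ornithine exporter gene ORT1 fell. Among all 5546 genes tested, 32% rose and 33.2% fell, so a change in ts2 is itself common. Without the median subtraction 384 genes were higher and 1755 lower. The median change of the 8 genes was 0.91, against 0.01 for all genes. Among all genes ARG1 ranked 8 and ARG3 ranked 9 from the largest rise, while ARG4 ranked 76 and CPA1 ranked 188.

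The mitochondrial enzyme genes ARG2, ARG8 and ARG7 belong to the first part of the route and moved least in ts2. The comparison covers only these, since ARG5,6 was not analysed. ARG2 encodes acetylglutamate synthase, the entry step. Its lowest, median and highest values were -0.32, -0.01 and 0.18 on the 6 ts2 arrays, against -0.20, -0.12 and 0.04 on the 8 WT arrays. The ranges overlapped, and the change of -0.04 ± 0.07 (SE) did not pass (limma adjusted p = 0.637). ARG8, the acetylornithine aminotransferase gene, lay at 0.20, 0.44 and 0.73 on the ts2 arrays, against -0.44, -0.05 and 0.20 on the WT arrays. The lowest ts2 array and the highest WT array were level, and ARG8 rose by 0.44 ± 0.08 (limma adjusted p = 3.63e-05). ARG7, whose ornithine acetyltransferase recycles the acetyl group, lay at 0.02, 0.21 and 0.58 in ts2, against -0.48, 0.09 and 0.36 in WT. These ranges overlapped widely, although ARG7 rose by 0.28 ± 0.08 (limma adjusted p = 0.00398). That call was absent in 2 of 3 slide runs taken alone (0.15 in run 2, 0.14 in run 4), and without the median subtraction the value was -0.09.

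ORT1, the ornithine transporter of the inner mitochondrial membrane, was the only one of the 8 that fell in ts2. Its lowest, median and highest values were -1.39, -1.18 and -0.33 on the ts2 arrays, against -0.37, -0.04 and 0.43 on the WT arrays. Only ts2 array C reached the WT range. ORT1 fell by 1.07 on the log2 scale (SE 0.10, limma adjusted p = 4.42e-10), which placed it at rank 200 from the largest fall.

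The cytosolic enzymes had the larger changes in ts2. CPA1 encodes the small subunit of the carbamoyl phosphate synthetase of this route. It lay at 0.82, 1.35 and 1.93 on the ts2 arrays, against -0.20, -0.04 and 0.38 on the WT arrays, with no overlap, and rose by 1.38 ± 0.12 (limma adjusted p = 5.04e-11). ARG3, ornithine carbamoyltransferase, lay at 2.42, 2.82 and 3.17 in ts2, against -0.08, 0.11 and 1.94 in WT. The WT maximum came from array A alone, the other 7 WT arrays reaching 0.28 at most, and even array A lay below every ts2 array. ARG3 rose by 2.77 ± 0.19 (limma adjusted p = 4.21e-13), with its mean of 0.31 over the WT arrays not subtracted.

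ARG1, argininosuccinate synthetase, lay at 2.38, 2.75 and 3.37 on the ts2 arrays, against -0.33, -0.08 and 0.22 on the WT arrays. The gap between the groups was wider than the range within either, and ARG1 rose by 2.78 ± 0.12 (limma adjusted p = 3.09e-17). ARG4, argininosuccinate lyase, performs the last step. It lay at 1.59, 1.82 and 2.19 in ts2, against -0.29, 0.02 and 0.26 in WT, again without overlap, and rose by 1.84 ± 0.07 (limma adjusted p = 6.85e-18). Each of the 7 calls in ts2 was kept in all 14 fits that left out 1 ts2 or WT array. With WT fixed at 0, leaving out a WT array could move only the dye term and the spread. Those fits thus hardly check the size of the changes. Leaving out all WT arrays gave 2.78 for ARG1 and 2.77 for ARG3, which is no check either. With both dyes used equally on the ts2 arrays, that step could not move these values. Without the median subtraction, where the median gene of ts2 lay at -0.36, ARG1 (2.42), ARG3 (2.40), ARG4 (1.48) and CPA1 (1.01) still rose and ORT1 (-1.44) still fell, while ARG8 (0.08) no longer passed.

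**Figure D1:**
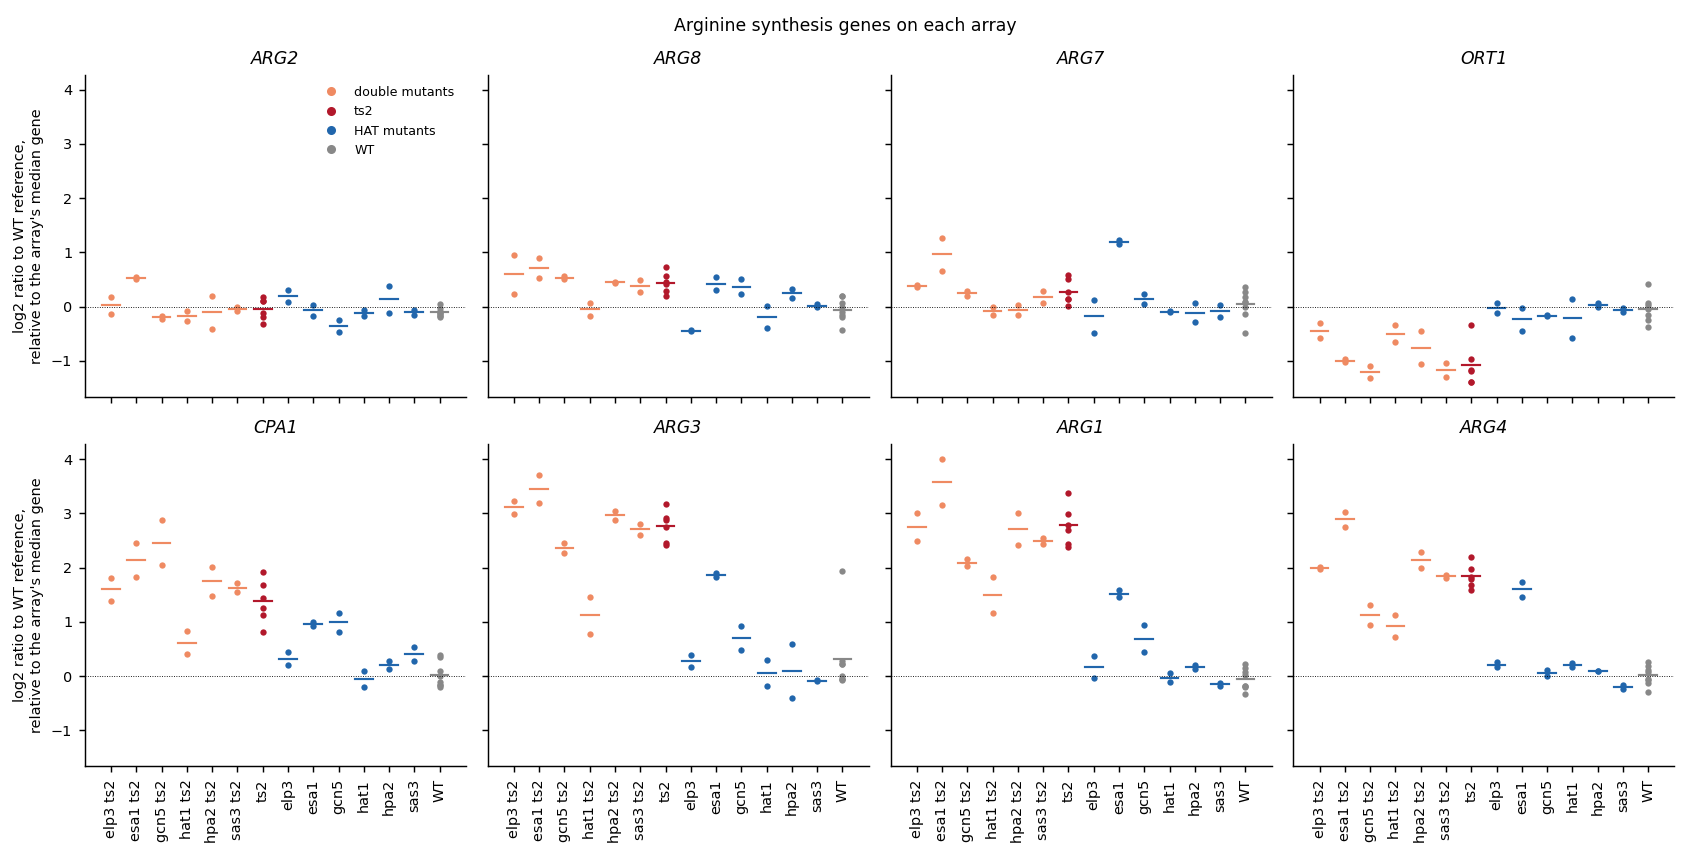
Log2 ratio of each gene relative to the array's median gene (y axis) on each array, by group (x axis). Points are arrays and bars are group means. ARG1 lies at 2.38 or above on all 6 ts2 arrays and at 0.22 or below on the 8 WT arrays, ORT1 lies below 0 on every array that carries ts2, and WT array A stands alone for ARG3 at 1.94.

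Among the single HAT mutants, esa1 had the most calls in the route. Of the 8 genes, 6 rose and none fell, against 16.9% of all genes rising, and the median change was 1.07 against -0.004 for all genes. ESA1 encodes the acetyltransferase of the NuA4 complex. ARG3 lay at 1.90 and 1.83 on the esa1 arrays, close to the 1.94 of WT array A but far above the other WT arrays, and rose by 1.86 ± 0.32 (limma adjusted p = 8.01e-05). ARG4 lay at 1.74 and 1.46 and rose by 1.60 ± 0.13. ARG1 lay at 1.58 and 1.45 and rose by 1.52 ± 0.20. All 4 of these ARG1 and ARG4 values lay above the whole WT range.

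The mitochondrial enzyme gene ARG7 had its highest group mean in esa1. It lay at 1.15 and 1.23 on the esa1 arrays, above the WT maximum of 0.36 and the ts2 maximum of 0.58, and rose by 1.19 ± 0.14 (limma adjusted p = 4.13e-07). CPA1 lay at 0.99 and 0.92 and rose by 0.96 ± 0.20. ARG8 lay at 0.55 and 0.30 and rose by 0.43 ± 0.14, but its call was lost without either esa1 array (0.35 without array A, 0.50 without array B). ORT1 (-0.24 ± 0.18) and ARG2 (-0.07 ± 0.13) did not pass. Without the median subtraction none of the 8 passed in esa1, and neither did any of the 5520 genes tested, of which 2089 had an unadjusted p under 0.05 with the subtraction.

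In gcn5, a mutant of the SAGA acetyltransferase gene, 2 of the 8 rose, against 9.15% of all genes. CPA1 lay at 1.17 and 0.82, both above the WT maximum of 0.38, and rose by 0.99 ± 0.20 (limma adjusted p = 0.000867). ARG1 lay at 0.94 and 0.44, above the WT maximum of 0.22, and rose by 0.69 ± 0.20 (limma adjusted p = 0.0171). Both calls were lost without gcn5 array A (CPA1 at 0.86, ARG1 at 0.42). ARG3 lay at 0.93 and 0.49, inside a WT range widened by array A, and its 0.71 ± 0.32 did not pass (limma adjusted p = 0.141). Without WT array A the same value passed (limma adjusted p = 0.00642). ARG4, by contrast, lay at -0.001 and 0.11 on the gcn5 arrays, within the WT range, with a fitted change of 0.05 ± 0.13.

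In elp3, hat1, hpa2 and sas3 none of the 8 genes passed the limma test. The shares of all genes called in either direction there were 0.452% in elp3, 0.572% in hat1, 0.401% in hpa2 and 0.163% in sas3. At an unadjusted p under 0.05, only ARG8 in elp3 (-0.44 ± 0.14, at -0.45 and -0.43) would have passed, 1 of 8 against 11.7% of all genes at that threshold, and none in hat1, hpa2 or sas3, against 5.75%, 13.2% and 5.94% of all genes. Fitted changes of the 8 genes in these 4 mutants lay between -0.44 (ARG8 in elp3) and 0.41 (CPA1 in sas3).

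All 6 double mutants were then compared with WT. ARG1, ARG3, ARG4 and CPA1 rose in each of the 7 groups that carry ts2, ARG8 rose in 6 of them and ORT1 fell in 6 of them. ARG7 rose in 3 and ARG2 only in esa1 ts2. In hat1 ts2 the calls of CPA1 (0.61 with both arrays) and ARG3 (1.12) were lost without array B, at 0.33 and 0.77, and with the array letter as a block, at 0.57 and 0.28. Without the median subtraction ARG4 no longer passed in gcn5 ts2, nor did CPA1, ARG3 and ARG4 in hat1 ts2. Their values stayed positive. Without that subtraction no ARG2, ARG7 or ARG8 call was kept in the groups that carry ts2. The ORT1 calls in hat1 ts2 and hpa2 ts2 were lost too. These comparisons share WT, and the groups share the ts2 allele. In elp3 ts2, 6 of the 8 rose, against 19.8% of all genes. In hat1 ts2, 4 rose and 1 fell, against 15% and 16.5% of all genes. In hpa2 ts2, 5 rose and 1 fell, against 21.8% and 23.4%, and in sas3 ts2, 5 rose and 1 fell, against 23.8% and 24.4%. In gcn5 ts2, 5 rose and 1 fell, against 26.4% and 27.7%. In esa1 ts2, 7 rose and 1 fell, against 27.8% and 28.6%. Without the median subtraction the split of all genes tilted: 210 higher and 2830 lower in esa1 ts2, 210 and 1197 in gcn5 ts2, 143 and 36 in elp3 ts2, 104 and 7 in hat1 ts2, 205 and 129 in hpa2 ts2, and 208 and 255 in sas3 ts2.

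Over the 13 mutant groups ARG1 showed the widest spread of mean changes, while among the double mutants alone that of ARG3 was wider. ARG1 lay at 3.16 and 4.01 in esa1 ts2, at 3.02 and 2.48 in elp3 ts2, and at 3.01 and 2.43 in hpa2 ts2. It lay at 2.54 and 2.43 in sas3 ts2, at 2.03 and 2.16 in gcn5 ts2, and at 1.16 and 1.82 in hat1 ts2, against 2.38 to 3.37 in ts2. Both hat1 ts2 arrays and both gcn5 ts2 arrays thus lay below every ts2 array, and 1 esa1 ts2 array lay above every ts2 array. Without ts2, ARG1 reached 1.58 and 1.45 in esa1 and 0.94 and 0.44 in gcn5, and in elp3, hat1, hpa2 and sas3 it lay between -0.18 and 0.37, against -0.33 to 0.22 in WT. By group mean the order ran from esa1 ts2 (3.58) through ts2 (2.78), elp3 ts2 (2.75), hpa2 ts2 (2.72), sas3 ts2 (2.48), gcn5 ts2 (2.09), esa1 (1.52), hat1 ts2 (1.49) and gcn5 (0.69) to the other HAT mutants and WT. The arrays of neighbours in that order overlapped, except between sas3 ts2 and gcn5 ts2, gcn5 ts2 and esa1, hat1 ts2 and gcn5, and gcn5 and hpa2.

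ARG3 was highest in esa1 ts2, at 3.20 and 3.72, then in elp3 ts2, at 3.24 and 2.98, and hpa2 ts2, at 3.05 and 2.88. It lay at 2.80 and 2.60 in sas3 ts2, at 2.27 and 2.46 in gcn5 ts2, and at 0.77 and 1.47 in hat1 ts2, against 2.42 to 3.17 in ts2. Only hat1 ts2 lay wholly below the ts2 arrays. By mean the order was esa1 ts2 (3.46), elp3 ts2 (3.11), hpa2 ts2 (2.96), ts2 (2.77), sas3 ts2 (2.70), gcn5 ts2 (2.37), esa1 (1.86), hat1 ts2 (1.12) and gcn5 (0.71), with the remaining groups at 0.31 or less. The 4 highest overlapped their neighbours, whereas sas3 ts2 lay above gcn5 ts2, gcn5 ts2 above esa1, and esa1 above hat1 ts2, without overlap.

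ARG4 was set apart in esa1 ts2. It lay at 2.75 and 3.02 in esa1 ts2, above all other arrays, at 2.01 and 1.98 in elp3 ts2, and at 1.99 and 2.30 in hpa2 ts2. It lay at 1.87 and 1.81 in sas3 ts2, at 0.94 and 1.31 in gcn5 ts2, and at 0.73 and 1.12 in hat1 ts2, against 1.59 to 2.19 in ts2. The gcn5 ts2 and hat1 ts2 arrays lay below every ts2 array, and they also lay below both esa1 arrays (1.74 and 1.46). By mean the order was esa1 ts2 (2.89), hpa2 ts2 (2.14), elp3 ts2 (1.99), ts2 (1.84), sas3 ts2 (1.84), esa1 (1.60), gcn5 ts2 (1.13) and hat1 ts2 (0.92), and neighbours overlapped from hpa2 ts2 to sas3 ts2 and between gcn5 ts2 and hat1 ts2. Apart from esa1, every HAT mutant without ts2 lay between -0.24 and 0.26, against -0.29 to 0.26 in WT.

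CPA1 had its highest group mean in gcn5 ts2. It lay at 2.88 and 2.04 in gcn5 ts2, at 1.83 and 2.46 in esa1 ts2, and at 2.01 and 1.48 in hpa2 ts2. It lay at 1.72 and 1.54 in sas3 ts2, at 1.80 and 1.39 in elp3 ts2, and at 0.40 and 0.83 in hat1 ts2, against 0.82 to 1.93 in ts2. Both gcn5 ts2 arrays lay above every ts2 array, and hat1 ts2 array B just reached the ts2 range. Neighbours in the order of means overlapped, except esa1 (0.96) and hat1 ts2 (0.61).

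ORT1 lay below 0 on all 18 arrays that carry ts2. It lay at -1.31 and -1.09 in gcn5 ts2, at -1.05 and -1.29 in sas3 ts2, and at -1.02 and -0.97 in esa1 ts2. It lay at -0.45 and -1.06 in hpa2 ts2, at -0.35 and -0.65 in hat1 ts2, and at -0.29 and -0.58 in elp3 ts2, against -1.39 to -0.33 in ts2. In elp3 ts2 it missed the test against WT (-0.44 ± 0.18, limma adjusted p = 0.0505), and with slide run as a block it passed there (-0.64, limma adjusted p = 0.0311). In hat1 ts2 it passed (-0.50, limma adjusted p = 0.0319), but not with that block (limma adjusted p = 0.0807), with no dye term, within slide run 4, or without array A (-0.56) or B (-0.44). The hpa2 ts2 call was lost without array B (-0.53). Neighbours in the order of means overlapped, except sas3 (-0.05) and gcn5 (-0.16), and no HAT mutant without ts2 passed.

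ARG2, ARG7 and ARG8 passed in fewer of the double mutants. ARG2 rose only in esa1 ts2, at 0.54 and 0.51 on its arrays against a WT maximum of 0.04 (0.52 ± 0.13, limma adjusted p = 0.000793). ARG7 rose in esa1 ts2 (0.66 and 1.27, fitted 0.96 ± 0.14) and in elp3 ts2 (0.36 and 0.41, fitted 0.38 ± 0.14), where the call was lost without either array (0.31 and 0.45). ARG8 rose in all double mutants except hat1 ts2 (0.08 and -0.18), with fitted changes from 0.38 in sas3 ts2 to 0.71 in esa1 ts2. Each of these 5 ARG8 calls was lost when an array of its own group was left out.

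Setting each double mutant against ts2 asks what the second mutation adds. These 6 comparisons share the ts2 arrays. In esa1 ts2, 5 of the 8 genes were higher than in ts2 and none lower, against 14.5% of all genes higher. ARG4 was higher by 1.05 ± 0.14 (limma adjusted p = 8.56e-06), ARG1 by 0.80 ± 0.24, CPA1 by 0.76 ± 0.24, ARG7 by 0.69 ± 0.16 and ARG2 by 0.56 ± 0.15. Without esa1 ts2 array B, the higher of both arrays for ARG1, CPA1, ARG4 and ARG7, only ARG4 passed, with CPA1 at 0.37 and ARG1 at 0.36. With slide run as a block ARG1 (0.67) and CPA1 (0.69) were lost. Within slide run 3, which holds both esa1 ts2 arrays, ARG4 alone passed (0.88, limma adjusted p = 0.0146). Without the median subtraction none of the 8 passed, and the median gene lay at -0.634. ARG4 then lay at 0.378, ARG1 at 0.135, CPA1 at 0.096, ARG7 at 0.018 and ARG2 at -0.103.

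In gcn5 ts2 the genes of the route diverged from each other. CPA1 was higher than in ts2 by 1.08 ± 0.24 (limma adjusted p = 0.00119), whereas ARG4 was lower (-0.72 ± 0.14, limma adjusted p = 0.000537) and ARG1 was lower (-0.69 ± 0.24, limma adjusted p = 0.0332). That is 1 of 8 higher and 2 of 8 lower, against 11.9% and 11.4% of all genes. ARG3 lay at -0.40 ± 0.38 and did not pass. Without gcn5 ts2 array A none of the 3 passed, with CPA1 at 0.70, ARG4 at -0.56 and ARG1 at -0.63. The ARG1 call was also lost with slide run as a block (-0.67, limma adjusted p = 0.094), with the array letter as a block (limma adjusted p = 0.125), without the WT arrays (limma adjusted p = 0.0682), and without gcn5 ts2 array B, ts2 array A or ts2 array E. Within slide run 2, which holds both gcn5 ts2 arrays, the 3 calls were present (CPA1 1.21, ARG4 -0.61, ARG1 -0.60), a comparison added after seeing the data. Without the median subtraction none of the 3 passed (CPA1 0.85, ARG4 -0.95, ARG1 -0.923), with the median gene at -0.209.

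In hat1 ts2, 3 of the 8 genes were lower than in ts2 and none higher, against 2.79% of all genes lower. ARG3 was lower by 1.65 on the log2 scale (-1.65 ± 0.38, limma adjusted p = 0.0115), ARG1 had -1.29 ± 0.24 (limma adjusted p = 0.00265) and ARG4 had -0.92 ± 0.14 (limma adjusted p = 0.00076). CPA1 lay at -0.77 ± 0.24 and missed the threshold (limma adjusted p = 0.0547). Without hat1 ts2 array A, the lower of both, none of the 8 passed (ARG3 -1.30, ARG1 -0.94, ARG4 -0.75), and without ts2 array C 5 did. Array A of hat1 ts2 and its slide mate, hat1 array A, had the highest shares of values not above 0 of all arrays, 3.81% and 4.23%. With slide run as a block ARG3 no longer passed (-1.64, limma adjusted p = 0.0521), which left 2 of the 8. Within slide run 4, which holds both hat1 ts2 arrays, the values were -1.53 for ARG3, -1.08 for ARG1 and -0.86 for ARG4. No gene of the 5365 tested passed in that smaller fit, so it gives values but no check of the calls. Without the median subtraction none of the 8 passed, and the median gene lay at 0.646. ARG3 then lay at -1.005, ARG1 at -0.647 and ARG4 at -0.276, all smaller falls than with the subtraction. The cause of the smaller changes in hat1 ts2 was not tested.

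In the other double mutants at most 1 of the 8 genes passed against ts2. In elp3 ts2 ORT1 was higher than in ts2 by 0.63 ± 0.21 (limma adjusted p = 0.0467), 1 of 8, against 5.75% of all genes higher. That call was lost without any 1 of 7 of the 8 arrays, with values from 0.58 to 0.69. In hpa2 ts2 none of the 8 passed, against 7.01% of all genes in either direction, and 2 of 8 had an unadjusted p under 0.05, against 22% of all genes. In sas3 ts2 none passed, against 0.181% of all genes, and none had an unadjusted p under 0.05, against 6.95%. The elp3 ts2 and hpa2 ts2 arrays share no slide run with a ts2 array, so slide run and strain cannot be told apart in those 2 comparisons.

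**Figure D2:**
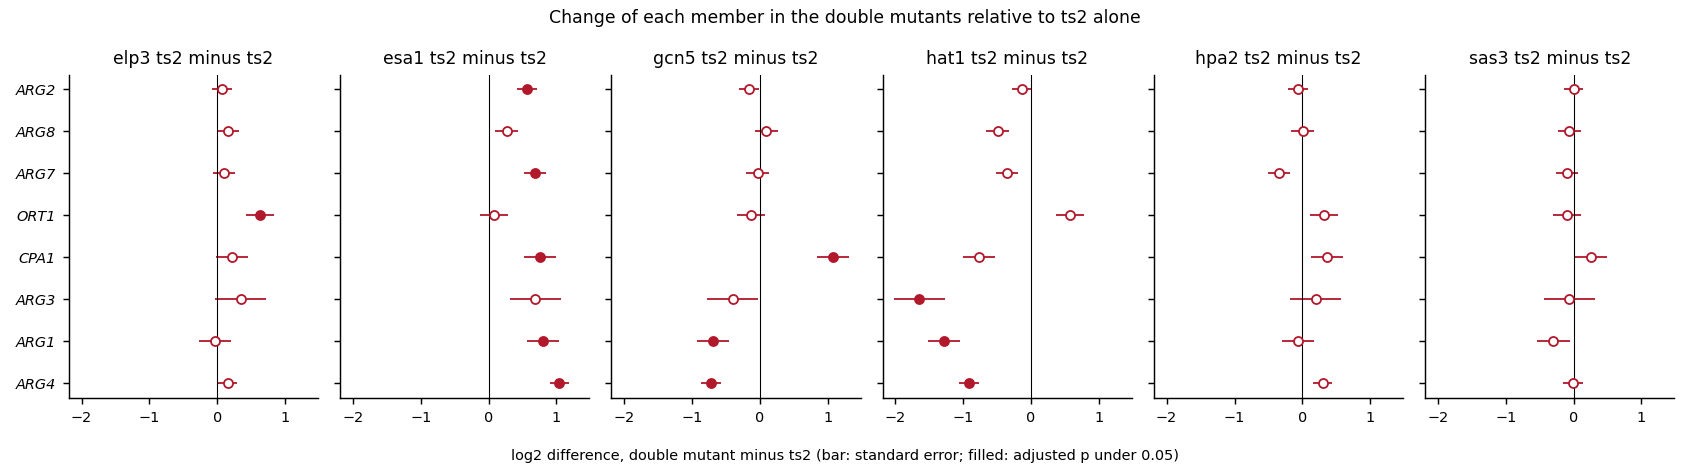
Log2 difference of each gene between a double mutant and ts2 (x axis) for the 8 genes (y axis), 1 panel for each double mutant. Bars are standard errors of the pooled model and filled points passed at an adjusted p under 0.05. In gcn5 ts2 CPA1 lies at 1.08 while ARG1 and ARG4 lie at -0.69 and -0.72, and in hat1 ts2 ARG3, ARG1 and ARG4 lie at -1.65, -1.29 and -0.92.

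Whether a double mutant differed from the sum of both single changes was tested as an interaction. With gcn5, ARG1 changed by 2.09 in the double mutant, against 3.47 for the sum (interaction -1.38 ± 0.31, limma adjusted p = 0.0229). ARG4 changed by 1.13, against 1.90 (interaction -0.77 ± 0.19, limma adjusted p = 0.0442). These were 2 of 8 genes lower than the sum, against 0.488% of all genes. CPA1 changed by 2.46 in gcn5 ts2, against 2.37 for the sum, and did not pass (interaction 0.09 ± 0.31). With hat1, ARG4 changed by 0.92 in the double mutant, against 2.05 for the sum (interaction -1.13 ± 0.19, limma adjusted p = 0.00912), 1 of 8 against 0.241% of all genes. ARG1 (-1.27 ± 0.31, limma adjusted p = 0.0697) and ARG3 (-1.70 ± 0.50, limma adjusted p = 0.126) did not pass there.

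These interactions rest on few arrays. The gcn5 interaction of ARG1 was lost without gcn5 array A (-1.11) or without gcn5 ts2 array A (-1.31) or B (-1.44). That of ARG4 was lost without any 1 of 7 arrays, at -0.93 to -0.61, and the hat1 interaction of ARG4 was lost without hat1 ts2 array A (-0.96). Within slide run 2 ARG1 passed (-1.29) and ARG4 did not (-0.67), and within slide run 4 ARG4 lay at -1.07 with hat1, in a fit where none of 5275 genes passed. None of the 8 genes passed with esa1, elp3, hpa2 or sas3, where the shares of all genes called were 4.92%, 0.725%, 1.81% and 0%. At an unadjusted p under 0.05 the counts were 5 of 8 with esa1, against 16.9% of all genes, 2 with elp3, against 13.7%, and 0 with hpa2 and sas3, against 14.8% and 3.11%.

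**Figure D3:**
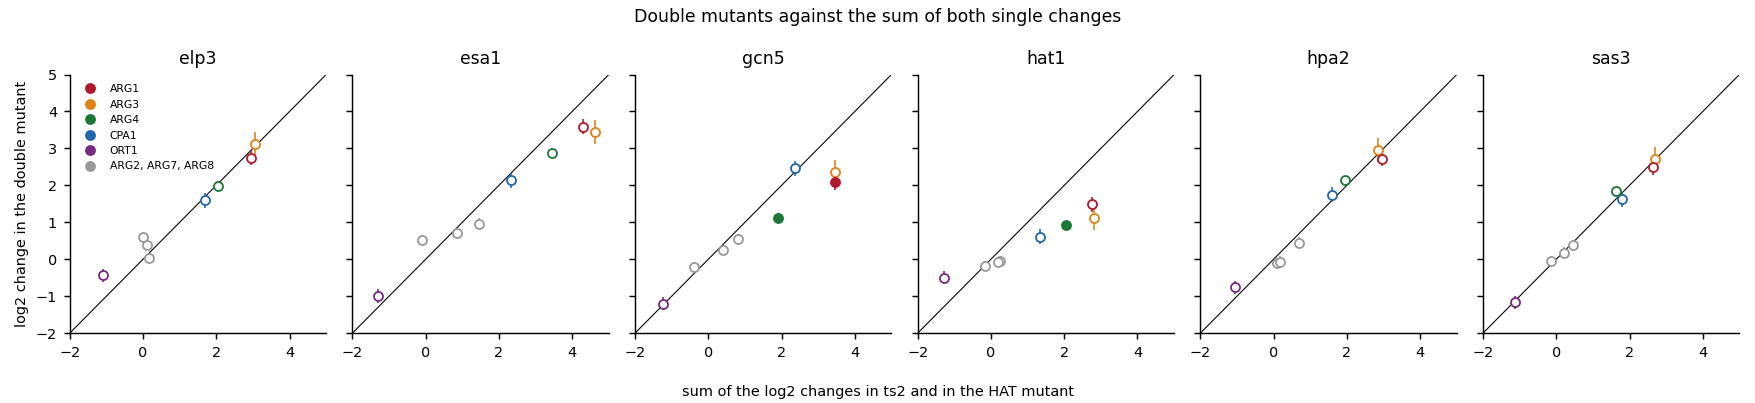
Log2 change of each gene in a double mutant (y axis) against the sum of its changes in ts2 and in the HAT mutant (x axis), 1 panel for each HAT gene. The line marks equality, bars are standard errors of the double mutant's change, and filled points are interactions that passed. ARG1 and ARG4 fall below the line with gcn5 (2.09 against 3.47, and 1.13 against 1.90), as does ARG4 with hat1 (0.92 against 2.05).

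The genes around the route were counted in the same fit. Of 9 genes that control it, 1 rose and 4 fell in ts2, against 32% and 33.2% of all genes, with a median of -0.17. GCN4, the activator itself, rose by 0.98 ± 0.08, at 0.81 to 1.19 on the ts2 arrays against -0.28 to 0.35 on the WT arrays. It also rose in all 6 double mutants (0.73 in hat1 ts2 to 1.54 in esa1 ts2), in esa1 (0.85 ± 0.13) and in gcn5 (0.44 ± 0.13). Gcn4 is controlled mainly at translation, which these arrays do not measure. Of the regulators upstream of Gcn4, 3 of 4 fell: GCN3, a subunit of the initiation factor eIF2B, fell by 0.87 (SE 0.08), GCN1, a cofactor of the kinase Gcn2, by 0.59 (SE 0.06), and the kinase gene GCN2 by 0.20 (SE 0.06), a call absent in each slide run alone. GCN20, a partner of GCN1, did not pass (0.16 ± 0.36) and lay at 1.22 within slide run 2 and -0.71 within run 4, with a call in each. ARG80, a subunit of the ArgR repressor, fell by 0.89 (SE 0.12), with 1 of the 6 ts2 arrays at 0.06 and a lowest value of -1.43, and within slide run 4 it did not pass (-0.36). The other ArgR genes ARG81 (-0.17 ± 0.13) and ARG82 (-0.02 ± 0.11) and MCM1 (0.07 ± 0.07) did not pass in ts2.

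Of 6 genes tested that supply glutamate, glutamine and aspartate or share carbamoyl phosphate, 4 rose and 1 fell in ts2, against 32% and 33.2% of all genes. AAT2, the cytosolic aspartate aminotransferase, rose by 1.87 ± 0.10, and GLN1, glutamine synthetase, by 1.29 ± 0.09. The glutamate dehydrogenase genes GDH1 (0.96 ± 0.15) and GDH3 (0.86 ± 0.13) rose too, but their sequences are close and the spots could capture both transcripts. Without the median subtraction neither passed (0.59 and 0.50), nor did GLT1, and GDH1 did not pass within slide run 4 (0.71). GLT1, glutamate synthase, fell by 0.21 (SE 0.07), a call absent in each slide run alone (-0.19, -0.18 and -0.27). URA2, of the pyrimidine route, lay at 0.37 ± 0.19.

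Of 6 genes of arginine breakdown and its branches, 4 rose and 1 fell in ts2, against 32% and 33.2% of all genes, with a median of 0.88. The arginase gene CAR1 rose by 0.88 ± 0.08 and the ornithine aminotransferase gene CAR2 by 1.52 ± 0.17. Of the proline-using genes, PUT1 rose by 0.88 ± 0.10 and PUT2 by 1.44 ± 0.22, where ts2 array F at 3.94 stood far above a median of 0.99. Without the median subtraction CAR1 (0.51) and PUT1 (0.52) no longer passed. SPE1, ornithine decarboxylase of polyamine synthesis, fell by 0.48 (SE 0.07), a call absent within slide run 2 (-0.23), and PRO3, which makes proline, lay at -0.10 ± 0.07. In gcn5 ts2 CAR1 was higher than in ts2 by 1.30 ± 0.16 (limma adjusted p = 5.93e-07), the direction of CPA1 and opposite to ARG1 and ARG4. It was the only call among the 6 breakdown genes there, 1 of 6 against 11.9% of all genes higher. Among 6 transporter genes 2 rose and 2 fell in ts2, near the 32% and 33.2% of all genes. The arginine permease gene CAN1 rose by 0.98 ± 0.10 and the general permease gene GAP1 by 0.36 ± 0.14, a call lost without any 1 of 5 ts2 arrays (0.30 to 0.35). The vacuolar transporter genes YPQ1 (-0.37 ± 0.08) and VBA2 (-0.29 ± 0.09) fell, calls absent within slide runs 3 (-0.16 and -0.17) and 4 (-0.44 and -0.23).

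**Figure D4:**
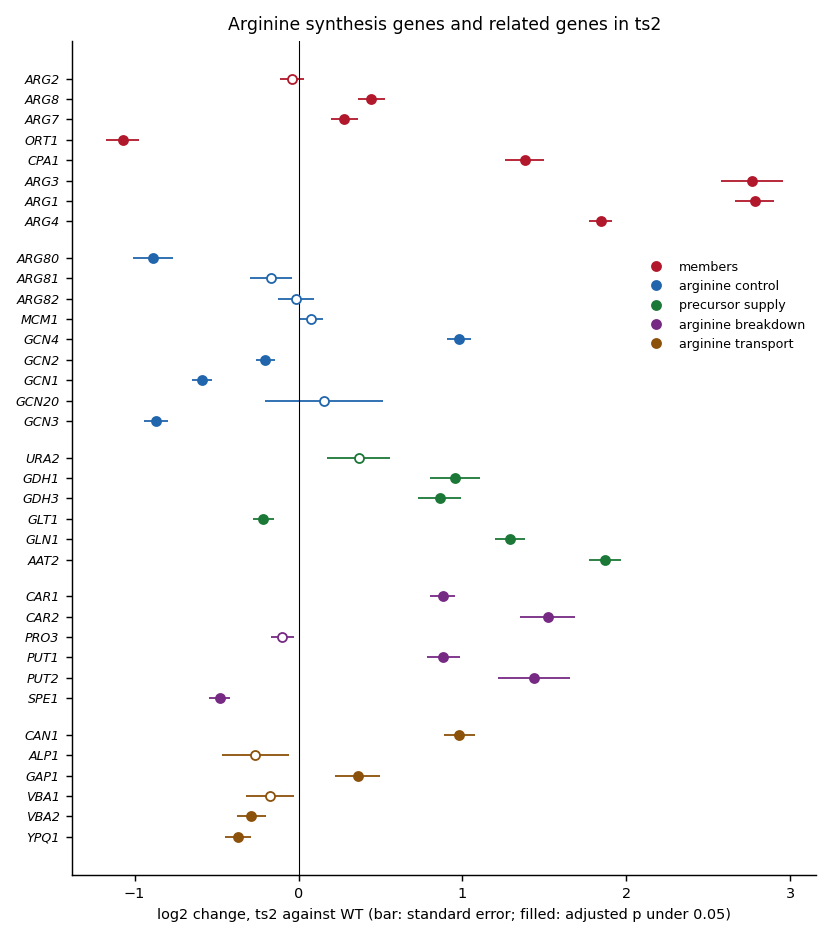
Log2 change in ts2 against WT (x axis) of the 8 arginine synthesis genes (members) and of related genes, by list (y axis). Bars are standard errors and filled points passed at an adjusted p under 0.05. ARG1 and ARG3 lie farthest right at 2.78 and 2.77, GCN4 at 0.98, and ARG80 and GCN3 lie at -0.89 and -0.87.

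The related lists were counted in esa1, gcn5 and hat1 ts2 as well. In esa1 GLN1 (0.92 ± 0.16), AAT2 (0.71 ± 0.17) and GLT1 (0.44 ± 0.11) rose among the 6 supply genes, and CAR1 (1.44 ± 0.14), CAR2 (1.16 ± 0.29) and PUT1 (1.07 ± 0.17) among the 6 breakdown genes, with none lower in either list, against 16.9% of all genes higher. Of the 9 control genes, GCN4 and MCM1 (0.80 ± 0.13) rose while GCN1 (-0.35 ± 0.11) and GCN3 (-0.37 ± 0.13) fell, against 16.9% of all genes higher and 11.9% lower. In gcn5 GLN1 (0.98 ± 0.16) and CAR1 (1.03 ± 0.14) were the 1 supply gene and the 1 breakdown gene that rose, 1 of 6 in each list against 9.15% of all genes. In hat1 ts2 set against ts2, GLN1 (-0.67 ± 0.19), AAT2 (-0.77 ± 0.19) and CAN1 (-0.67 ± 0.19) were lower, 2 of 6 supply genes and 1 of 6 transporter genes against 2.79% of all genes.

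The 8 genes lie on chromosomes VIII, X, XIII and XV, and the genes next to them were counted too. Of 16 flanking genes 4 rose, YOR302W among them, and 6 fell in ts2, near the 32% and 33.2% of all genes. None overlaps an arginine gene in the RefSeq R64 annotation, used only for the order of genes. The reading frame YOR302W, directly before CPA1, was singled out after its values were seen. It rose in ts2 by 1.37 ± 0.09, against 1.38 for CPA1, and lay within 0.5 of CPA1 on 35 of 38 arrays. It also rose in esa1 (0.84 ± 0.16), gcn5 (0.88 ± 0.16) and gcn5 ts2 (2.26 ± 0.16), and was higher in gcn5 ts2 than in ts2 (0.89 ± 0.18). Whether both spots capture the same transcript was not tested, so the match does not show a neighbour that changed apart from CPA1. GPD2, the neighbour before ARG1 and a glycerol phosphate dehydrogenase gene, rose in ts2 by 1.18 ± 0.08, while YOL057W on the other side of ARG1 fell by 0.46 (SE 0.07).

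The genes whose changes over the 13 mutant groups were most like the mean of the 8 arginine genes were HIS3, RAS2, PUN1, CPR1 and CCW14, out of 4719 ranked by Pearson correlation. The mean change of the arginine genes was largest in esa1 ts2 (1.66), elp3 ts2 (1.25), hpa2 ts2 (1.14) and ts2 (1.05) and smallest in hat1 (-0.05). Since groups with and without ts2 form separate sets, the correlation is given within each. The 5 genes were picked for their correlation over these same groups, so a high r within a set follows in part from that choice. Among the 6 groups without ts2 the mean change was 0.906 in esa1, 0.303 in gcn5 and between -0.053 and 0.112 in the others. HIS3, a histidine synthesis enzyme gene, had an r of 0.953 over the 7 groups with ts2 and 0.949 over the 6 without. For RAS2, a small GTPase gene, these were 0.937 and 0.924, for PUN1 0.931 and 0.918, for CPR1, a cyclophilin gene, 0.922 and 0.972, and for CCW14, a cell wall protein gene, 0.891 and 0.984. The groups share the WT reference, and 7 share an allele, so these are descriptions with no test. HIS3 rose by 1.36 ± 0.08 in ts2, 1.40 ± 0.13 in esa1 and 0.88 ± 0.13 in hat1 ts2, in cells grown without histidine in every group.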

How the data were processed

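Test strain and WT polyA RNA were hybridised on 38 arrays, per the labels. The deposited values are linear ratios of test over WT for 7056 spots. Per the series description the authors applied mode normalization in R and then a correction from Bacillus subtilis spikes per OD600. It is not stated whether these steps precede the deposited ratios. Scanner settings and spot quality are not given in the sources used here. Precision is limited by the number of arrays.

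The log2 of each ratio was taken, and the 0.752 to 4.23 percent of values on an array that were not above 0 were left missing. Spots of the same gene were averaged (30 genes), array medians over named genes were subtracted, and 1477 spots without a gene name were left out. Gene names came from the platform annotation, and 5574 of 5579 named spots matched the RefSeq table. Of 7 planned supply genes, 1 is not reported here. Groups and dyes came from titles and labels. The dye sign of WT arrays came from the slide mate or the array letter, since their labels do not settle it.

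All arrays entered 1 linear model per gene (limma 3.58.1, R 4.3.3) with a coefficient for each of 13 mutant groups, WT fixed at 0, and a dye term. There were 25 comparisons. Benjamini-Hochberg adjustment ran over all genes of a comparison at 0.05. A gene was tested with at least 4 of 6 ts2 values, 6 of 8 WT values and all values of a group of 2. Alternatives were the deposited scale, no dye term, slide run, slide or array letter as a block, other filters on missing values, no WT arrays, single slide runs, and leaving out each array in turn. A group of 2 then keeps 1 array, whose spread was taken from the other groups. The fit was also checked on simulated data. The named genes were the arginine genes, the related lists, and the 5 named genes with the most similar changes. The members and lists were chosen with earlier results of these data known. Same-letter ts2 and WT arrays did not deviate together (r of -0.172 to 0.103), so letters do not pair arrays. They also share no slide: each ts2 array shares its slide with a WT array of another letter. The esa1, gcn5, hat1 and sas3 arrays share slides with their double mutants. The main fit leaves this pairing out, and slide enters only as a random block among the alternatives. Among arrays of the same dye orientation, hpa2 array A and ts2 array A correlated at -0.309. The labels state their dyes, so the directions were kept.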

Additional observations from a re-analysis of the deposited data

Results flagged for a closer look

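In 7 of 70 sets of arrays (the ts2 or WT arrays of 1 gene), a single array stood far from the rest, where chance gives about 1 in 20. The sets share the same arrays and are not independent, so that rate does not measure an excess. For the arginine gene ARG3 the lone array was WT array A, at 1.94. WT array A also stood apart for ARG81 (-0.91), GLN1 (0.37) and ALP1 (-1.02). Among ts2 arrays, array D stood apart for GCN2 (0.10), array F for PUT2 (3.94) and array B for GAP1 (-0.29).

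In 6 cases the change in a double mutant differed from the sum of both single changes by the limma interaction test. These were ARG1 with gcn5 (-1.38), ARG4 with gcn5 (-0.77), ARG4 with hat1 (-1.13), AAT2 with esa1 (-1.005), CAR1 with esa1 (-1.02) and GDH3 with hpa2 (-1.33). AAT2 changed by 1.58 in esa1 ts2, 1.87 in ts2 and 0.71 in esa1, and its interaction was lost without esa1 ts2 array A (-0.83) or esa1 array A (-0.85). CAR1 changed by 1.30 in esa1 ts2, 0.88 in ts2 and 1.44 in esa1, and its interaction was lost without esa1 ts2 array A (-0.65). On the deposited scale none of the 6 passed. GDH3 lay at -1.48 and 0.36 on the hpa2 ts2 arrays, and without array A, the array whose strain number is that of elp3, its interaction was -0.45 and did not pass.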

How the results depend on the processing

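Of 67 calls among 200 tests of the 8 genes, 40 held whichever array was left out and 39 were lost without the median subtraction. On that deposited scale ARG7 turned to -0.086 in ts2, ARG8 to -0.015 in esa1, ARG2 to -0.51, ARG8 to -0.32 and ARG7 to -0.068 in esa1 ts2, ARG8 to -0.059 in gcn5 ts2, ARG2 to -0.10 in esa1 ts2 against ts2, and GAP1 to -0.005 in ts2. Within slide run 4 GCN20 turned to -0.71 in ts2, and within run 2 it lay at 1.22. On the deposited scale the counts of the 8 genes called were 0 in esa1 and gcn5, 5 in esa1 ts2 and 1 in hat1 ts2, and against ts2 and in interactions 0 throughout. Over all genes, 384 were higher and 1755 lower in ts2 on that scale, against 1776 and 1841 after subtraction, and 0 passed in esa1, against 933 and 655. In gcn5 these were 23 and 6, against 507 and 518, and against ts2 14 and 40 in gcn5 ts2 (659 and 633 after subtraction) and 2 and 18 in esa1 ts2 (802 and 529).

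When slide run was a block, the counts of the 8 genes were 1 in gcn5, 0 in elp3 ts2 against ts2, 3 in esa1 ts2 against ts2, 2 in gcn5 ts2 and in hat1 ts2 against ts2 and 1 in the gcn5 interaction, and over all genes 21 higher and 25 lower in elp3 ts2 against ts2 (318 and 238 without the block) and 32 and 41 in hat1 ts2 against ts2 (122 and 153). With the array letter as a replicate block they were 2 in hat1 ts2, 2 in gcn5 ts2 against ts2 and 0 in elp3 ts2 against ts2, and over all genes 170 higher and 198 lower in gcn5. With no dye term elp3 ts2 against ts2 gave 0 and the gcn5 interaction 1. With the slide as a random block (correlation 0.225) elp3 ts2 against ts2 gave 0, the esa1 interaction 1 and the hat1 interaction 2. Without the WT arrays these were 0, 1 and 2, and the gcn5 interaction 0. Within a slide run, chosen after seeing the data, gcn5 gave 5, the gcn5 interaction 1, esa1 ts2 against ts2 1, the esa1 interaction 1, and hat1 ts2 against ts2 and its interaction 0. Leaving out 1 array gave 7 calls throughout in ts2, 5 to 6 in esa1, 0 to 4 in gcn5, 4 to 7 in elp3 ts2, 7 to 8 in esa1 ts2, 5 to 6 in gcn5 ts2 and sas3 ts2, 2 to 5 in hat1 ts2 and 4 to 6 in hpa2 ts2. Against ts2 it gave 0 to 1 in elp3 ts2, 1 to 5 in esa1 ts2, 0 to 3 in gcn5 ts2 and 0 to 5 in hat1 ts2, and in interactions 0 to 1 with esa1 and 0 to 2 with gcn5 and hat1.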
